A study of Arabidopsis thaliana with 6 samples.

Results

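The Aux/IAA proteins are short-lived repressors of auxin signalling. A canonical member carries a repression motif that recruits TOPLESS co-repressors, a degron that is bound by the auxin receptors of the TIR1/AFB family when auxin is present, and a carboxy-terminal domain that pairs with auxin response factors (ARFs). Auxin leads to destruction of the repressor, and many Aux/IAA genes are themselves transcribed in response to auxin, which closes a negative feedback loop. A small set of Aux/IAA genes encodes proteins with a missing or altered degron or with otherwise divergent domains. Proteins that lack the degron are known to be more stable than canonical ones. The 7 genes described here are those of this set: IAA20 (AT2G46990), IAA30 (AT3G62100), IAA31 (AT3G17600), IAA29 (AT4G32280), IAA32 (AT2G01200), IAA33 (AT5G57420) and IAA34 (AT1G15050). They were chosen by locus from the 29 Aux/IAA genes of Arabidopsis thaliana, and all 7 were found among the 32833 genes of the deposited count table.

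The samples were roots of wild-type Col-0 seedlings, the standard laboratory accession, taken 3 days after germination. In the IAA group, seedlings had spent 1 h in liquid half-strength Murashige and Skoog medium to which IAA had been added at 1 µM (indole-3-acetic acid, an auxin that plants make). In the mock group they had spent the same time in that medium without the hormone. Each group had 3 samples of about 100 pooled roots, so cell types were not separated, and more RNA per cell and more cells of a type cannot be told apart. The sources do not say whether the replicates were grown and treated separately, so p-values rest on the spread between these samples, which may be technical.

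Library totals were close to each other, from 20808439 to 20984444 counts. The 8 root marker genes were detected in every library, with summed levels of 801 to 937 CPM (the usual scaling of a gene's counts by its library total, here adjusted for library composition) in IAA libraries and 711 to 753 CPM in mock libraries. Of these, 1 was called, WOX5 of the stem cell niche, which was higher in IAA roots (log2 fold change 0.93, edgeR adjusted p = 0.0272) and was not called without mock replicate 1, mock replicate 2, IAA replicate 2 or IAA replicate 3. The 6 green shoot markers, which encode proteins of the photosynthetic apparatus, varied far more, from 176 to 799.5 CPM in IAA libraries and from 173 to 2375 CPM in mock libraries. They were high in mock replicates 1 and 3 and in IAA replicate 2, and 0 of 6 were called in edgeR, DESeq2 or limma-voom, and 0 at an unadjusted p under 0.05. The most abundant, RBCS1A and LHCB1.3, had log2 fold changes of -2.26 and -1.77. None of the 6 was at 0 in any library, and their part in the results was not tested except by a fit with their level as a term.

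Annotated coding sequences were searched for the traits by which the set is defined, so differences from the rest of the family follow from that choice. The core of the degron, glycine, tryptophan, proline, proline, was found by exact search in the translated coding sequence of 22 of 22 other Aux/IAA genes and of 1 of the 7, IAA29. IAA31 had 3 of the 4 core residues in its best-matching window, IAA32 had 2, and IAA20, IAA30, IAA33 and IAA34 had none. The window was the best ungapped match, anywhere in the protein, to 13 residues of IAA17 around its core. It began at residue 41 in IAA32 and at residue 18 in IAA34. In proteins with few matches it is therefore not shown to be the place of a degron. The repression motif of leucines at every other position (3 leucines) was found in 22 of 22 other proteins and in 6 of the 7, the exception being IAA33. This pattern too was searched anywhere in the protein, so a match is not shown to be a working repression motif. Over the 13-residue degron window, IAA17 matched itself at 13 residues by construction, and the rest of the other family members matched 8 to 12. IAA29 matched 7, and the remaining 6 proteins of the set matched 3 or 4. IAA29 is thus divergent around an intact core, whereas the other 6 lack that core. The coding-strand DNA of the window is shown for the canonical IAA17 and for the 2 genes of the set that come closest to it, read from the TAIR10.1 genome, with the codons at the 4 core positions in capitals.
IAA17: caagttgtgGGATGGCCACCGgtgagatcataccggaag
IAA29: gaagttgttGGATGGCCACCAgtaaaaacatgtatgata
IAA31: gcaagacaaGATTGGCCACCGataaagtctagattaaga

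The set contains close relatives. The proteins of IAA20 and IAA30 were identical at 146 of 171 aligned residues (85.4%) and those of IAA32 and IAA34 at 108 of 154 (70.1%), while the other pairs ranged from 22.4% to 43.7%. The longest identical stretch between the exons of IAA20 and IAA30 was 43 bases and that between IAA32 and IAA34 was 25 bases. Reads were 100 bases long, and no gene of the set shared a longer stretch with any other Aux/IAA gene. In TAIR10.1, IAA20 lies on chromosome 2 from 19307714 to 19309071, IAA30 on chromosome 3 from 22995686 to 22996809 and IAA31 on chromosome 3 from 6019973 to 6021147. IAA29 lies on chromosome 4 from 15583332 to 15584903, IAA32 on chromosome 2 from 117969 to 120095, IAA33 on chromosome 5 from 23269914 to 23271092 and IAA34 on chromosome 1 from 5181991 to 5183413.

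After IAA, 2 of the 7 genes rose, and they did so strongly. IAA29, which is known as a target of phytochrome-interacting factors in shoots, rose 20.4-fold, and IAA30 rose 11.3-fold. IAA20, the paralogue of IAA30, and IAA31 and IAA33 had fitted increases of about the same size as each other (log2 fold changes of 0.88 to 1.12) that did not pass the test. IAA34 had nearly equal levels in both groups, and IAA32 did not pass the low-count filter. Of the 6 genes that passed the low-count filter, 2 were called higher and 0 lower (quasi-likelihood test of edgeR, threshold 0.05 on the Benjamini-Hochberg adjusted p), against 3.24% called higher and 0.991% called lower among all 19778 genes tested. At an unadjusted p under 0.05, 4 were higher and 0 lower, and DESeq2 and limma-voom each called 2 higher and 0 lower. Over all genes, 9.88% were higher and 7.57% lower at that unadjusted p, 5.56% and 2.78% in DESeq2, and 3.09% and 0.915% in limma-voom. In 3 of the 6, IAA29, IAA30 and IAA33, every IAA value lay above every mock value, which was so for 12.3% of all genes tested.

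**Figure D1:**
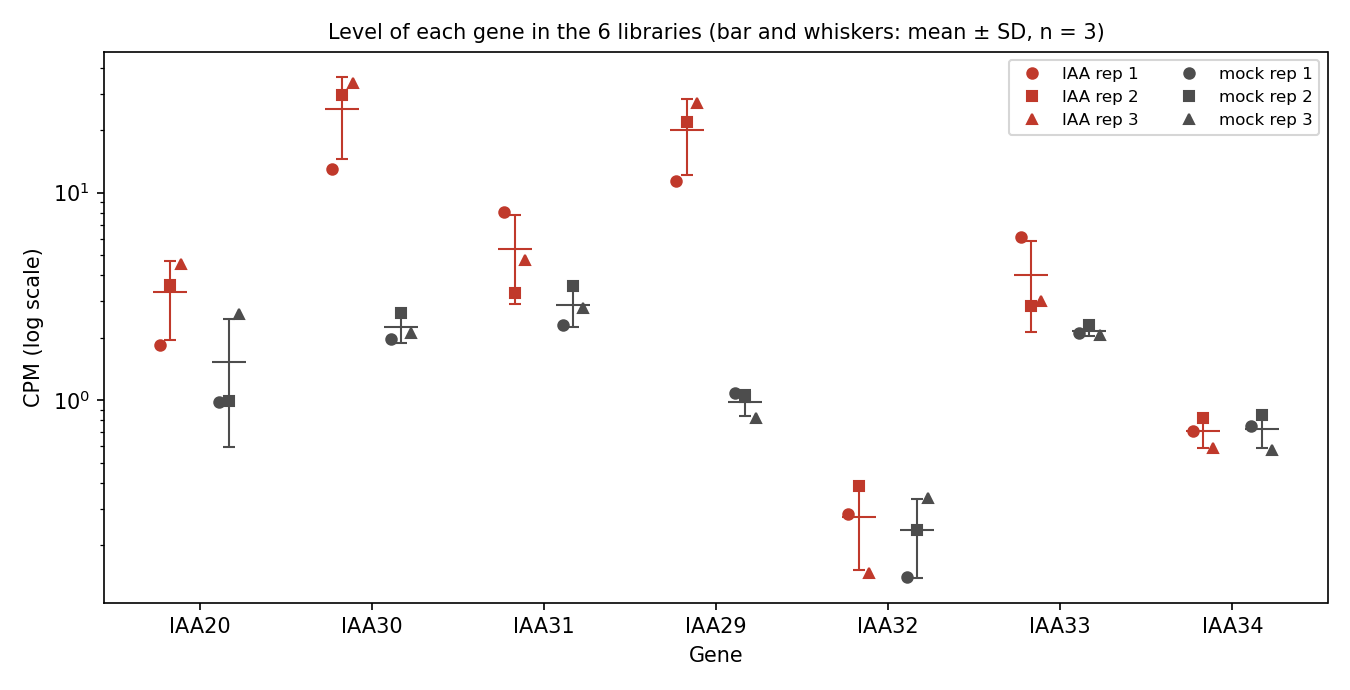
Level of each of the 7 genes in each library, in CPM on a log axis, IAA libraries in red and mock libraries in grey, with a marker shape for each replicate number and bars for mean ± SD (n = 3). The IAA points of IAA29 and IAA30 lie far above their mock points, those of IAA33 lie just above, and the groups overlap for the other 4 genes.

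IAA29 had 240, 455 and 551 counts in IAA replicates 1, 2 and 3, against 23, 22 and 17 counts in mock replicates 1, 2 and 3. That is 11.3, 22.0 and 27.1 CPM in IAA roots and 1.08, 1.04 and 0.818 CPM in mock roots. Every IAA library was thus about an order of magnitude or more above every mock library. The fitted log2 fold change was 4.35 (SE 0.37, approximate 95% interval 3.48 to 5.23, edgeR adjusted p = 0.00114). By size of increase it ranked 22 among the genes tested.

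IAA30 had 276, 609 and 684 counts in IAA replicates 1, 2 and 3, against 42, 56 and 44 counts in mock replicates 1, 2 and 3. Its mean was 25.4 ± 10.9 CPM in IAA roots and 2.24 ± 0.354 CPM in mock roots (SD, n = 3 each). The groups did not overlap, and IAA replicate 1 was the lowest IAA library for this gene as for IAA29. The log2 fold change of IAA30 was 3.50 (SE 0.38, 95% interval 2.58 to 4.41, edgeR adjusted p = 0.00446), and its rank by increase was 44. The authors' deposited table gives log2 fold changes of 4.36 for IAA29 and 3.50 for IAA30, with adjusted p of 3.25e-30 and 1.87e-21. It lists no other gene of the set with an adjusted p under 0.05, and 4.89% of its 22207 genes with an adjusted p are called higher at that threshold.

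IAA20 had 39, 74 and 92 counts in IAA replicates 1, 2 and 3, against 21, 21 and 54 counts in mock replicates 1, 2 and 3. The groups overlapped, since mock replicate 3 was higher than IAA replicate 1. Its mean was 3.31 ± 1.36 CPM in IAA roots and 1.52 ± 0.930 CPM in mock roots (SD, n = 3 each), and the log2 fold change of 1.12 was not called (SE 0.49, 95% interval -0.02 to 2.25, edgeR adjusted p = 0.293). The ratio of the paralogues was compared library by library. IAA30 had 7.08, 8.23 and 7.43 times as many counts as IAA20 in IAA replicates 1, 2 and 3, against 2.00, 2.67 and 0.815 times as many in mock replicates 1, 2 and 3. Values of this ratio did not overlap between groups (2-sided exact permutation test on its log2, p = 0.1, the smallest possible with 3 against 3), and this pair was compared after the values had been seen, as 1 of 3 such ratios (Benjamini-Hochberg adjusted p = 0.15).

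IAA31 had 171, 68 and 96 counts in IAA replicates 1, 2 and 3, against 49, 75 and 58 counts in mock replicates 1, 2 and 3. Its groups overlapped, with IAA replicate 2 below mock replicate 2. The log2 fold change of IAA31 was 0.90 (SE 0.35, 95% interval 0.09 to 1.71) and the edgeR adjusted p was 0.236.

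IAA33, whose product lacks the repression motif as well as the degron and is known to act through ARF10 and ARF16 at the root tip, had 130, 59 and 61 counts in IAA replicates 1, 2 and 3, against 45, 49 and 43 counts in mock replicates 1, 2 and 3. Its groups did not overlap, but only IAA replicate 1 stood well above mock. The log2 fold change of IAA33 was 0.88 (SE 0.33, 95% interval 0.12 to 1.65, edgeR adjusted p = 0.217). Without IAA replicate 1 it was 0.43 and that of IAA31 was 0.48, neither called.

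IAA34, whose product is known from the apical hook as a substrate of the TMK1 kinase, was low and flat. It had 15, 17 and 12 counts in IAA replicates 1, 2 and 3, against 16, 18 and 12 counts in mock replicates 1, 2 and 3. Its log2 fold change was -0.04 (SE 0.33, edgeR adjusted p = 0.973), and the 95% interval of -0.80 to 0.72 leaves room for changes of either sign below 2-fold. IAA32, the paralogue of IAA34 and like it a partner of TMK1 in the hook, had 6, 8 and 3 counts in IAA replicates 1, 2 and 3, against 3, 5 and 7 counts in mock replicates 1, 2 and 3. The groups overlapped, and the gene did not pass the low-count filter. In a fit without that filter its log2 fold change was 0.21 (95% interval -1.16 to 1.57, edgeR adjusted p = 0.922), an interval that lies below the changes of IAA29 and IAA30. The authors' deposited table gives IAA32 a log2 fold change of 0.20 with a standard error of 0.94.

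**Figure D2:**
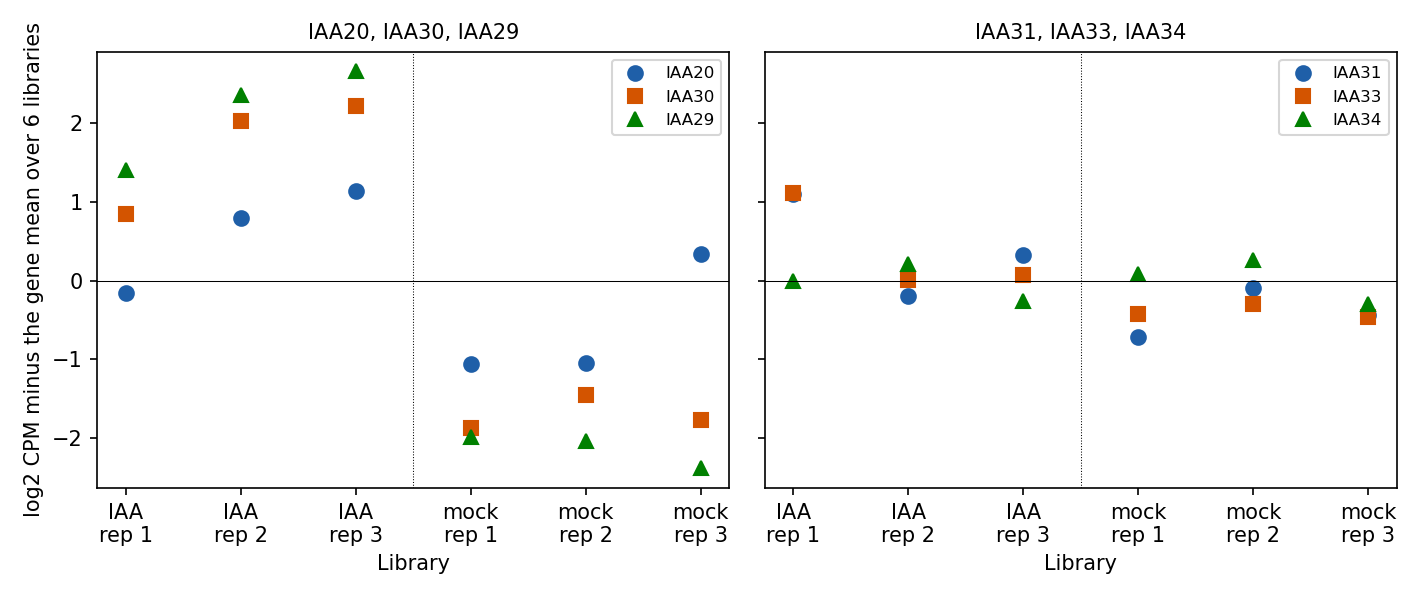
Log2 CPM of 6 of the genes in each library, minus the mean of that gene over the 6 libraries, with IAA libraries left of the dotted line and mock libraries right of it. In the left panel IAA replicate 1 is the lowest IAA library for IAA20, IAA30 and IAA29, and in the right panel it is the highest for IAA31 and IAA33.

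The replicates of the IAA group did not order the genes in the same way. IAA replicate 1 was the lowest IAA library for IAA29, IAA30 and IAA20, and the highest for IAA31 and IAA33. Of the 15 other Aux/IAA genes called higher, 9 were lowest and 3 were highest in IAA replicate 1. IAA29 and IAA30 moved almost in parallel across IAA libraries, with 0.870, 0.747 and 0.806 counts of IAA29 for each count of IAA30 in IAA replicates 1, 2 and 3, against 0.548, 0.393 and 0.386 in mock replicates 1, 2 and 3. The ratio was higher in every IAA library (exact permutation p = 0.1, the smallest possible, adjusted p = 0.15). That of IAA31 to IAA33 was 1.31, 1.15 and 1.57 in IAA replicates 1, 2 and 3, and 1.09, 1.53 and 1.35 in mock replicates 1, 2 and 3, which overlapped (exact permutation p = 0.8, adjusted p = 0.8).

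Levels of different genes were compared as CPM per kilobase of annotated exon. In mock roots the 7 genes were among the lower members of the family, at ranks 19 to 27 of 29. The order in mock roots was IAA31 at 3.23 ± 0.701, IAA33 at 2.85 ± 0.172, IAA30 at 2.26 ± 0.356, IAA20 at 1.54 ± 0.941, IAA29 at 0.763 ± 0.109, IAA34 at 0.715 ± 0.136 and IAA32 at 0.127 ± 0.0525 CPM per kilobase (SD, n = 3). Neighbours whose ranges overlapped were IAA31 and IAA33, IAA30 and IAA20, and IAA29 and IAA34. In IAA roots IAA30 came first of the 7 (25.5 ± 10.95 CPM per kilobase, rank 14 of 29) and IAA29 next (15.7 ± 6.27, rank 18), with overlapping ranges. IAA31 (6.01 ± 2.76), IAA33 (5.27 ± 2.45) and IAA20 (3.355 ± 1.38) followed, each overlapping its neighbour, and IAA34 (0.696 ± 0.114) and IAA32 (0.146 ± 0.0642) stayed at the low end without overlap.

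The weight of the set within the family was small and larger in IAA roots. The 7 genes together had 877 of 65698, 1290 of 64400 and 1499 of 63620 Aux/IAA counts in IAA replicates 1, 2 and 3, against 199 of 31499, 246 of 32334 and 235 of 29240 in mock replicates 1, 2 and 3. Their share was 1.90% ± 0.519 in IAA roots and 0.732% ± 0.0895 in mock roots (SD, n = 3 each), higher in all 3 IAA libraries (2-sided exact permutation p = 0.1, the smallest possible). IAA30 and IAA29 made up most of the share in IAA roots, with 0.814% ± 0.347 and 0.646% ± 0.256, against 0.152% ± 0.0200 and 0.0664% ± 0.00757 in mock roots (exact permutation p = 0.1 for each). IAA20 had nearly equal shares, 0.106% ± 0.0433 in IAA roots and 0.105% ± 0.0686 in mock roots (exact permutation p = 1). IAA34 took a smaller share in IAA roots, 0.0227% ± 0.00377 against 0.0492% ± 0.00745 in mock roots (exact permutation p = 0.1), while its own level was about the same in both. The 8 shares tested (the set and each gene) had Benjamini-Hochberg adjusted p of 0.2 at the lowest.

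**Figure D3:**
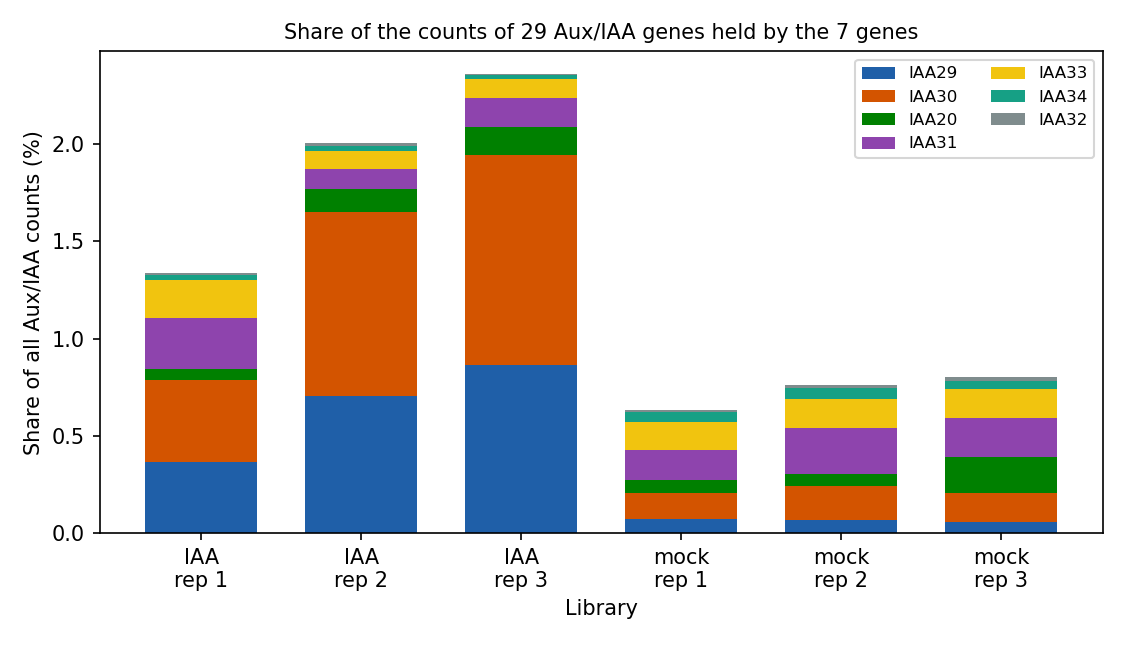
Share of the counts of all 29 Aux/IAA genes, in percent, held by each of the 7 genes in each library, IAA libraries left and mock libraries right. The stacked bars reach 1.335% to 2.356% in IAA libraries and 0.632% to 0.804% in mock libraries, and the growth lies in the IAA29 and IAA30 segments.

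Of the 22 other Aux/IAA genes 21 were tested, and 15 rose and 1 fell in edgeR. Over all genes tested, 3.24% were called higher and 0.991% lower. The median log2 fold change of these 21 Aux/IAA genes was 1.07, that of the 6 tested genes of the set 1.01 and that over all genes tested -0.01. The median of the set lies between IAA31 (0.90) and IAA20 (1.12), neither of which was called. Whether the share of genes called differed between the set and the rest of the family was not tested. IAA5 had the largest log2 fold change, 7.96, followed by IAA19 at 4.40 and IAA6 at 4.34, so that IAA29 at 4.35 stood beside IAA19 and IAA6. The sizes for IAA5 and IAA6 rest on few mock counts. IAA5 had 2, 2 and 2 and IAA6 had 6, 21 and 7 counts in mock replicates 1, 2 and 3. At the other end were IAA28 (-0.51, called lower), IAA27 (-0.45, not called) and IAA7 (0.19, not called). The IAA28 call was absent when any library except mock replicate 3 was left out. IAA15 was not tested, with 1, 1 and 0 counts in IAA replicates 1, 2 and 3 and 0 counts in every mock library.

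**Figure D4:**
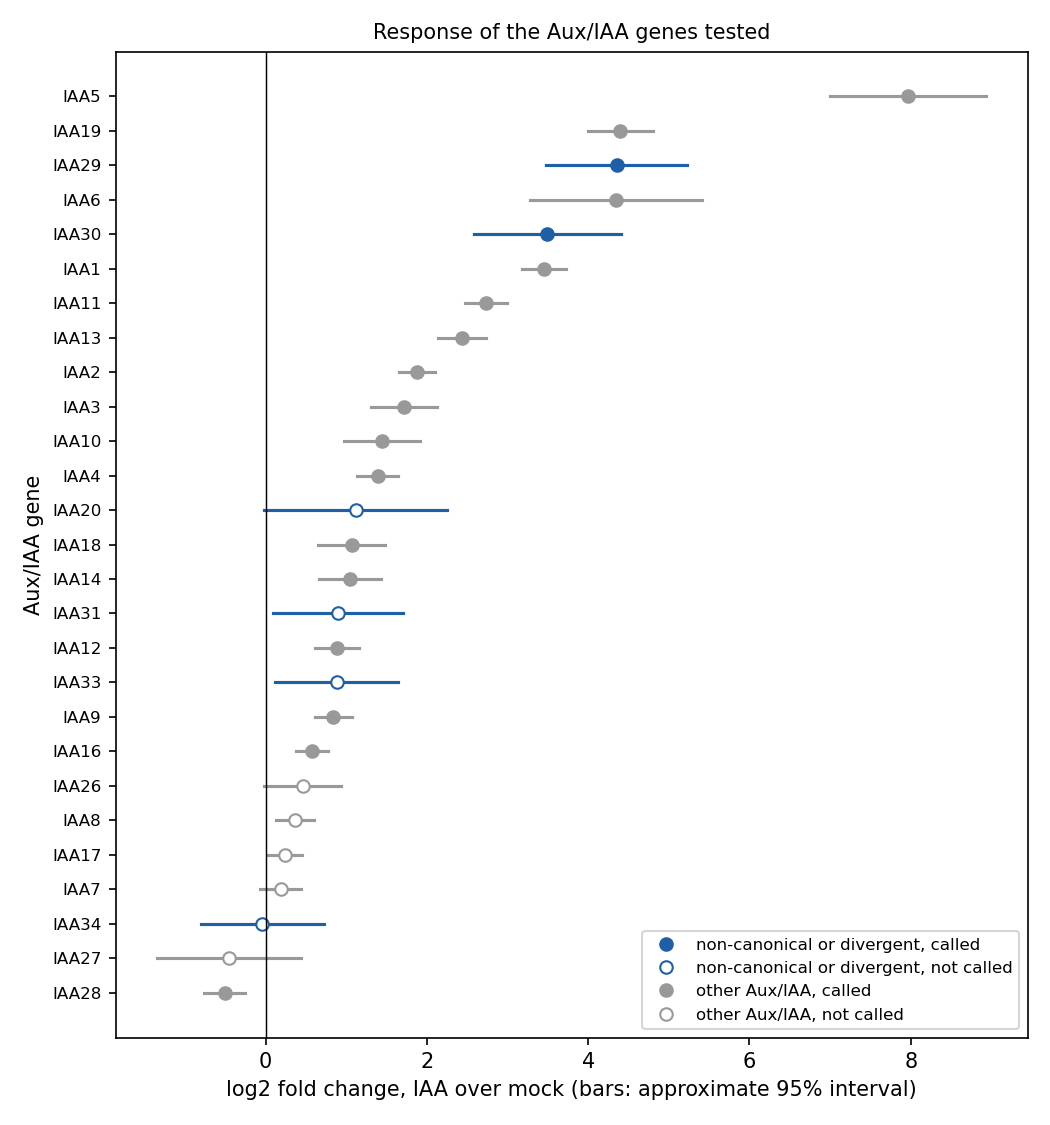
Log2 fold change of IAA over mock for the 27 Aux/IAA genes tested, with approximate 95% intervals, the 6 genes of the set in blue and the others in grey, filled where called. IAA29 (4.35) and IAA30 (3.50) lie among the largest responses of the family, while IAA20, IAA31, IAA33 and IAA34 are not called and have wide intervals.

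Of 39 tested genes for partners of these proteins and related regulators, 4 rose and 1 fell in edgeR, and their median log2 fold change was 0.05. Over all genes tested, 3.24% were called higher and 0.991% lower. Of 6 receptor genes, 0 were called in edgeR, DESeq2 or limma-voom and 0 had an unadjusted p under 0.05, and the most abundant were TIR1 at 183 ± 17.9 CPM in IAA roots and 170 ± 27.0 CPM in mock roots and AFB1 at 106 ± 16.1 CPM in IAA roots and 108 ± 9.23 CPM in mock roots (SD, n = 3 each). Of 5 TOPLESS-type co-repressor genes, 0 were called by any of the 3 tools and 0 had an unadjusted p under 0.05. The most abundant, TPL, was at 214 ± 13.8 CPM in IAA roots and 197 ± 10.7 CPM in mock roots, and TPR1 was at 96.5 ± 5.92 CPM in IAA roots and 93.4 ± 3.64 CPM in mock roots. Of 3 TMK kinase genes tested, 0 were called by any of the 3 tools and 0 had an unadjusted p under 0.05, with log2 fold changes of -0.21 for TMK1 and 0.16 for TMK3.

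Of 15 ARF genes, 2 rose and 0 fell in edgeR. Before adjustment 5 were higher and 0 lower (p under 0.05), DESeq2 called 4 higher and 0 lower and limma-voom 2 and 0. Among all genes tested, 3.24% were called higher in edgeR, 5.56% in DESeq2 and 3.09% in limma-voom, and 9.88% were higher at that unadjusted p. ARF19, an activator of auxin-responsive transcription, rose 3.31-fold (log2 SE 0.14, edgeR adjusted p = 0.000643), and ARF4 had a log2 fold change of 0.83 (edgeR adjusted p = 0.0242) that was not called without mock replicate 1, 2 or 3 or IAA replicate 2. In a group of 6 vascular genes, fixed because IAA20 and IAA30 are known from vascular tissue, 5 were tested and 2 rose, among them T5L1, a transcription factor gene, 1.36-fold. The T5L1 call was lost without any 1 of the libraries except IAA replicate 1. The ARF5 gene had a log2 fold change of 0.18 and was not called.

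Of 5 genes of phytochrome-interacting factors, 1 fell and 0 rose in edgeR, with 4 lower at an unadjusted p under 0.05, 3 lower in DESeq2 and 1 in limma-voom. Among all genes tested, 0.991% were called lower in edgeR, 2.78% in DESeq2 and 0.915% in limma-voom, and 7.57% were lower at that unadjusted p. PIF7 had 0.225 ± 0.0245 CPM in IAA roots and 1.58 ± 0.301 CPM in mock roots (SD, n = 3 each, log2 fold change -2.78, edgeR adjusted p = 0.00477). These levels rest on 5, 5 and 4 counts in IAA replicates 1, 2 and 3, against 34, 27 and 39 counts in mock replicates 1, 2 and 3. A link between PIF7 and IAA29 was not tested. PIF4 (log2 fold change -2.18) and PIF5 (-1.35) were not called, and both were highest in mock replicates 1 and 3, which also had the highest levels of the green shoot markers. The part of the shoot markers in the PIF values was not tested beyond the fit with their level as a term, in which PIF7 was still called lower.

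The genome around the 7 genes was checked because the sources do not give the strand setting of the counting. Of the 16 nearest or overlapping genes, 11 were tested, and 2 rose, AT3G62110 beside IAA30 (log2 fold change 0.69, edgeR adjusted p = 0.0382) and AT4G32285 beside IAA29 (log2 fold change 0.47, edgeR adjusted p = 0.0291). Among all genes tested, 3.24% were called higher. AT3G62110 lies 211 bases past the end of IAA30 on the opposite strand and AT4G32285 lies 539 bases past the end of IAA29 on the same strand. Both calls were lost without mock replicate 1, mock replicate 2 or IAA replicate 2, that of AT3G62110 also without mock replicate 3 and that of AT4G32285 also without IAA replicate 3. IAA32 shares 826 exon bases with AT2G01210 on the opposite strand, and IAA34 shares 125 with AT1G15060 on the same strand, so the counts of IAA32 and IAA34 are uncertain as to their gene. IAA20, IAA30, IAA31, IAA29 and IAA33 overlap no annotated gene.

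The 250 bases before the annotated gene start are shown for IAA20 and IAA29. Searched on both strands were the auxin response element TGTCTC, its high-affinity form TGTCGG and the G-box CACGTG, which phytochrome-interacting factors and other factors bind, and matches to any of the 3 are in capitals. Sequences are from the plus strand of TAIR10.1, which is the coding strand of both genes.
IAA20, chr2:19307464-19307713: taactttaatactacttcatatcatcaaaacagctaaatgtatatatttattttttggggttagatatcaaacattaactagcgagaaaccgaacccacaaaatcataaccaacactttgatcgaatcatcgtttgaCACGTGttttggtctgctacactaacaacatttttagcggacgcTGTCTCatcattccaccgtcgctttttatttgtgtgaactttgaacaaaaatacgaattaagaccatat
IAA29, chr4:15583082-15583331: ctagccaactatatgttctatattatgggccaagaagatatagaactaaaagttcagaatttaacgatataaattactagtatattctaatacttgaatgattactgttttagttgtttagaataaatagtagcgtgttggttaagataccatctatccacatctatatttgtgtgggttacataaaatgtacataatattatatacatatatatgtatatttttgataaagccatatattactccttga

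In the window of IAA20, CACGTG began 113 bases before the gene start and TGTCTC 69 bases before it. The window of IAA29 held none of the 3 elements, which says only that these letters are not in these 250 bases. The windows of the other 5 genes are not described here, so the elements were not set against the responses. Among the other 22 Aux/IAA genes TGTCTC was in 5 windows, TGTCGG in 6 and CACGTG in 2, and among the 27443 windows of protein-coding genes they were in 10.9%, 4.2% and 6.5%.

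For each tested gene of the set, the 2 genes of most similar pattern were taken as those with the smallest root mean square difference in centred log2 CPM over the 6 libraries. For IAA30 they were AT5G47440 (difference 0.25) and AT1G53163 (0.26), with log2 fold changes of 3.26 and 2.96. For IAA29 they were AT2G17680 (0.24), which averaged 2.84 CPM in IAA roots and 0.063 CPM in mock roots, and CBP60G (0.29), a gene of calmodulin-binding protein type, with a log2 fold change of 3.98. AT1G54870 (0.12) and AT5G23370 (0.17) were closest to IAA20, AT1G01453 (0.14) and AT1G29270 (0.15) to IAA31, AT2G22420 (0.06) and FLP1 (0.08) to IAA33, and AT2G46320 (0.04) and AT1G28080 (0.05) to IAA34.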

How the data were processed

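RNA sequencing libraries were made after ribosomal RNA removal and read as 100-base pairs, per the labels' protocols. The deposited raw counts per gene have 1 column per sample, with the 2 technical runs of each sample already combined. The submitters' processing notes name FastQC, STAR 2.5.2b, SAMtools, DESeq2 1.26.0 and the build TAIR10; no counting tool, annotation or strandedness is given in the sources used here. The authors' deposited comparison table gives, per the file headers, a mean normalized signal, log2 fold changes with standard errors on the log2 scale, a Wald statistic as score, and p-values with Benjamini-Hochberg adjustment.

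Counts were tested with edgeR 4.0.16 in R 4.3.3 (filterByExpr, TMM, glmQLFit and glmQLFTest, robust, group as the only term), with p adjusted over all 19778 genes tested and called under 0.05. CPM used TMM-scaled totals. SEs were taken as the size of the log2 fold change over the root of F. Single values were compared by 2-sided exact permutation tests. Alternatives were RLE factors, library totals, no filter, a filter of 1 CPM and 10 counts in 3 libraries, DESeq2 1.42.0, limma-voom 3.58.1, a replicate block, a threshold of 0.01, changes of at least 2-fold, each library left out, no organelle genes and, added after the data were seen, the shoot marker level as a term. The fit was tested on simulated data.

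Symbols, positions and sequences are from the RefSeq annotation of TAIR10.1, which the submitters' notes do not name. The longest annotated coding sequence of each gene was translated, and exon length is the union over transcripts. Replicate pairs differed by more than counting noise (chi-square per gene from 13.7 to 43). The genes and lists were chosen with earlier results of these data known. Named were all 7 genes, of other lists up to 3 called members by smallest p or the 2 most abundant, the 3 largest and 3 smallest changes among other Aux/IAA genes, called flanking genes and 2 genes of most similar pattern per gene tested. ARF5, PIF4, PIF5 and IAA15 were named outside this rule after their values were seen. So were the ARF genes and, except WOX5, the root markers under other observations. A gene of the vascular group and an upstream sequence are not reported here.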

Additional observations from a re-analysis of the deposited data

How the results depend on the processing

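In all 17 alternatives 2 of the 7 genes were called higher, IAA29 and IAA30, and 0 were called lower. Log2 fold changes ranged from 4.09 to 4.64 for IAA29 (adjusted p at most 0.0147), from 3.25 to 3.81 for IAA30 (at most 0.0401), from 0.84 to 1.74 for IAA20, from 0.48 to 1.15 for IAA31 and from 0.43 to 1.08 for IAA33, the last 3 never called. IAA34 was near 0, from -0.18 to 0.10 with a library left out, and changed sign to 0.10 without mock replicate 2 and to 0.08 without IAA replicate 3; the stricter filter left it untested. The share of family counts held by the 7 genes kept its direction in all 9 alternatives. Other Aux/IAA genes called higher numbered 12 to 16. Those called lower were 0, against 1, with RLE factors, limma-voom, the replicate block, a stricter filter on low counts, an adjusted p under 0.01 or a minimum of 2-fold, and 0 to 1 with a library left out. Without IAA replicate 1 the number was 1, but the gene was not IAA28, whose call was absent there. Other pathway genes called higher numbered 4, against 7 in DESeq2 and 2 at an adjusted p under 0.01, at a minimum of 2-fold or with the shoot marker level as a term, and 2 to 4 with a library left out. Those called lower numbered 1, against 3 in DESeq2 and 1 to 3 with a library left out. Over all genes, 641 were called higher and 196 lower in the fit used above, against 1099 and 549 in DESeq2. The numbers were 635 and 193 with RLE factors, 612 and 181 in limma-voom and 647 and 188 with the stricter filter. They were 272 and 39 at an adjusted p under 0.01 and 381 and 92 at a minimum of 2-fold. With the shoot marker level as a term they were 407 and 112. With a library left out they ranged from 260 to 839 higher and from 47 to 433 lower. The cause of the shifts in these counts was not tested. With the replicate block 2 of the 7 genes were called, and over all genes 462 were higher and 149 lower, against 641 and 196 without it. The calls of WOX5, T5L1, AT3G62110 and AT4G32285 were lost with the block and also with the shoot marker level as a term. The ARF4 call was lost with the shoot marker level as a term but not with the block. ARF19 and PIF7 were called in both. Same-numbered libraries did not deviate together (r of 0.09, -0.45 and 0.20), so the numbers were not taken as pairs. At under 20 counts per library, as for IAA32 and IAA34, depth limits what can be seen.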

Other observations

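Some genes that are not in the set had their highest IAA value in IAA replicate 1, as IAA31 and IAA33 did. These were chosen after their values were seen. ARF16, whose product is a known partner of IAA33 in the root tip, was at 90.4, 45.3 and 41.3 CPM in IAA replicates 1, 2 and 3, against 28.1, 33.0 and 23.8 CPM in mock replicates 1, 2 and 3, with no overlap between groups and no call (log2 fold change 1.06, edgeR adjusted p = 0.144). ARF10 was at 59.7, 24.3 and 17.9 CPM in IAA replicates 1, 2 and 3, against 27.4, 28.1 and 19.8 CPM in mock replicates 1, 2 and 3, and its groups overlapped. PLT1 and PLT2, root stem cell niche regulators, were at 24.3 and 19.3 CPM in IAA replicate 1, against at most 18.2 and 10.4 CPM in the other 2 IAA libraries. CASP1, a marker of the differentiated endodermis, was lowest there, at 119 CPM, against 177 and 191 CPM in IAA replicates 2 and 3. IAA replicate 1 was thus the highest IAA library for ARF10, ARF16, PLT1 and PLT2 and the lowest for CASP1. These genes were not particular in this. Of the other root markers, WOX5, SCR, SHR and COBL9 were also highest there, and PHT1;1 was lowest. COBL9 was at 48.2 CPM in IAA replicate 1, against 41.6 and 44.0 CPM in IAA replicates 2 and 3. More ARF genes, among them ARF1, ARF5 and ARF9, were highest there, and ARF18 was lowest. The part of any of these genes in the values of IAA31 and IAA33 was not tested.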
